A study of Mus musculus with 6 samples.

Results

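The genes described here code for G protein-coupled receptors of chemokines, formyl peptides, nucleotides and lipids in mouse alveolar macrophages, together with receptors known only by a Gpr number and the serotonin receptor gene Htr2c. They were chosen by symbol alone: the whole symbol is Gpr, P2ry, S1pr, Lpar, Ccr, Cxcr, Fpr, Cnr, Cysltr or Ltb4r followed by digits, or is Cx3cr1, Ccrl2 or Htr2c, and the gene has at least 30 counts over the 6 libraries. Of 23413 genes in the count table, 137 had such a symbol and 45 reached 30 counts, while 51 had fewer and 41 had none. Just inside the limit were Lpar2 with 38 counts and Gpr19 with 41, and just outside were Ccr9 with 24 and Cx3cr1 with 23. By role, 7 of the 45 are chemokine receptors, 2 formyl peptide receptors, 6 nucleotide receptors, 10 receptors of lipids or metabolites, 19 other numbered Gpr genes, and Htr2c stands alone.

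Alveolar macrophages, which live in the airspaces and take up particles and microbes, were obtained by lavage from wild-type (WT) mice and profiled by RNA-seq, with 2 libraries in each of 3 groups. In the LPS + VD3 group the cells received 100 ng/mL lipopolysaccharide (LPS) and 50 nM vitamin D3 (VD3) in culture for 4 h, and in the LPS group they received the same LPS alone. LPS, an outer membrane lipid of Gram-negative bacteria, is detected by the receptor Tlr4, and VD3 is the vitamin whose active form binds the nuclear receptor Vdr. The third group was labelled control, and neither the culture of its cells nor the number of mice is stated in the labels. Effects of LPS and of culture therefore cannot be told apart in comparisons with control. Wording such as rose or fell with LPS names that comparison only. Since the libraries may come from the same mice, p-values measure only how far these libraries spread, which could be technical.

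G protein-coupled receptors sit in the plasma membrane and, when a ligand binds, switch on heterotrimeric G proteins that change cyclic AMP, calcium or the cytoskeleton. Macrophages use chemokine and formyl peptide receptors to find injured or infected tissue, P2Y receptors to sense nucleotides from damaged cells, and lipid receptors to read sphingosine 1-phosphate, lysophosphatidic acid, leukotrienes and endocannabinoids. Signalling is ended by RGS proteins, which speed up GTP hydrolysis, and by receptor kinases and arrestins. The Gpr numbers are historical and cover unlike proteins: Gpr126, Gpr125 and Gpr56, now Adgrg6, Adgra3 and Adgrg1, are adhesion receptors, Gpr65 senses protons, and Gpr89, Gpr107, Gpr108 and Gpr155 are known from the Golgi apparatus or the lysosome rather than as receptors of soluble ligands.

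Library totals lay between 5022314 and 5465223 counts. Across genes, log2 CPM correlated at Pearson's r of 0.981 between the LPS + VD3 libraries, 0.969 between the LPS libraries and 0.991 between the control libraries, and the difference between LPS 1 and LPS 2 followed transcript GC content across genes (Spearman's rho of 0.655, against 0.18 in LPS + VD3 and 0.235 in control). LPS 1 is also the library whose title belongs to another number series. Cyp24a1, the vitamin D-degrading enzyme induced through Vdr, had 23.4 and 24.7 CPM (counts scaled to a common library total, corrected by trimmed-mean or TMM factors) in LPS + VD3, 0 counts in both LPS libraries and 0.343 and 0.481 CPM in control. Tnf, which LPS induces, had 1696 and 1939.6 CPM in LPS + VD3, 2959 and 2223 in LPS and 27.4 and 24.8 in control, so the values of both genes follow the labels. All 13 alveolar macrophage markers found in the table were tested, with a summed level of 26975 to 29478 CPM in LPS + VD3, 29113 to 31311 in LPS and 25729 to 25883 in control. The sum hides changes of single markers. At an adjusted p under 0.05, 3 were higher and 6 lower in LPS than in control, where 31.8% of all genes tested passed. In LPS + VD3 against control 2 were higher and 6 lower, where 35.0% of all genes passed. Neutrophil markers, of which 2 of 9 had enough counts to test, summed to 19.7 to 23.7 CPM in LPS + VD3, 17.4 to 22.3 in LPS and 12.2 to 13.7 in control, with S100a9, Mpo, Elane and Retnlg at 0 counts in every library. Monocyte and interstitial macrophage markers (3 of 9 tested) summed to 500.4 to 511 CPM in LPS + VD3, 576 to 696 in LPS and 378 to 384 in control. The epithelial sum of 40.6 to 53.5 CPM in LPS + VD3, 34.3 to 38.8 in LPS and 223 to 240.4 in control was nearly all Cdh1, the one of 9 such markers tested, with Sftpc at 0. Lymphocyte markers summed to at most 5.37 CPM, dendritic cell markers to at most 24.5, eosinophil markers to at most 30.5 and stromal and endothelial markers to at most 8.09, with Cd3e, Epx and Col3a1 among the markers at 0. The part of such cells in the results was not tested.

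Among the receptor genes tested, more were lower than higher in LPS against control. Of 43 receptor genes with enough counts to test, 22 were lower and 10 higher in LPS than in control at an adjusted p under 0.05 in edgeR's quasi-likelihood test, where 31.8% of all genes tested passed, 16.2% lower and 15.7% higher. The serotonin receptor Htr2c, the cannabinoid receptor Cnr2 and the proton sensor Gpr65 fell most, and the adhesion receptor Gpr126, the chemerin-binding receptor Ccrl2, the orphan Gpr85, the lipid-responsive Gpr132 and the fatty acid receptor Gpr84 rose most. The median log2 fold change was -0.67 over the 43 and 0.01 over all genes tested. In this bulk RNA, fewer cells that express a gene and less of its RNA per cell cannot be told apart. The tested set is not all members: 26 of the 43 had at least 10 counts in both libraries of every group, 5 in 2 groups and 12 in only 1 group, and these 12 entered the test through the group where they are high, so the count is a description. Ccr2, Cxcr4, Cysltr1, Gpr171, Gpr56, Gpr65, Htr2c, P2ry1 and P2ry12 entered through control and were all called lower. Gpr132 and Gpr176 entered through LPS and were called higher. The 22 lower calls and the median of -0.67 include these genes, so the direction of the counts is a description too. Lpar2 and Gpr19 had too few counts to test. The libraries of the compared groups did not overlap for 38 of the 43 genes, against 65.2% of all genes tested. With library size as the only scaling, 24 receptor genes were lower and 9 higher. In that fit 3057 of all 10724 genes tested were lower and 1086 higher, with a median of -0.29. The higher share of the calls was 27.3% for the receptor genes and 26.2% for all genes. Fewer receptor genes passed without control 1 or without control 2, and fewer of all genes tested did too.

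Adding VD3 to LPS changed receptor genes in both directions, with members of every role group but the formyl peptide receptors and Htr2c. In LPS + VD3 against LPS 6 of the 43 rose, among them P2ry13, Ccrl2, Gpr126, Lpar6 and S1pr4, and 4 fell, among them Gpr85, S1pr2 and Gpr155. In that comparison 3.83% of all genes tested passed, 2.25% higher and 1.59% lower, and the libraries did not overlap for 35 of the 43 genes, against 48.1% of all genes. The median log2 fold change was 0.40 over the 43 and 0.00 over all genes tested. P2ry13 passed in all 15 alternative fits. The other 9 calls were each lost in at least 1 fit that left out an LPS + VD3 library. The count of 10 thus rested on both of those libraries. The number of all genes that passed also fell in those fits.

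Against control, 18 receptor genes were lower and 13 higher in LPS + VD3, where 35.0% of all genes tested passed, 17.3% lower and 17.7% higher. The median log2 fold change was -0.20 over the 43 and 0.01 over all genes. The libraries did not overlap for 39 of the 43, against 75.8% of all genes. With library size as the only scaling, 21 receptor genes were lower and 11 higher. In that fit 3356 of all 10724 genes tested were lower and 1171 higher, with a median of -0.32. The higher share of the calls was 34.4% for the receptor genes and 25.9% for all genes. The 3 comparisons share libraries in pairs, so their values for a gene are not independent: a high LPS library lowers LPS + VD3 against LPS and raises LPS against control at once. Ccrl2 and Gpr126 were higher at each step. Lpar6, P2ry13 and S1pr4 were lower in LPS than in control and higher in LPS + VD3 than in LPS, and Gpr155 and Gpr85 were higher in LPS than in control and lower in LPS + VD3 than in LPS.

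**Figure D1:**
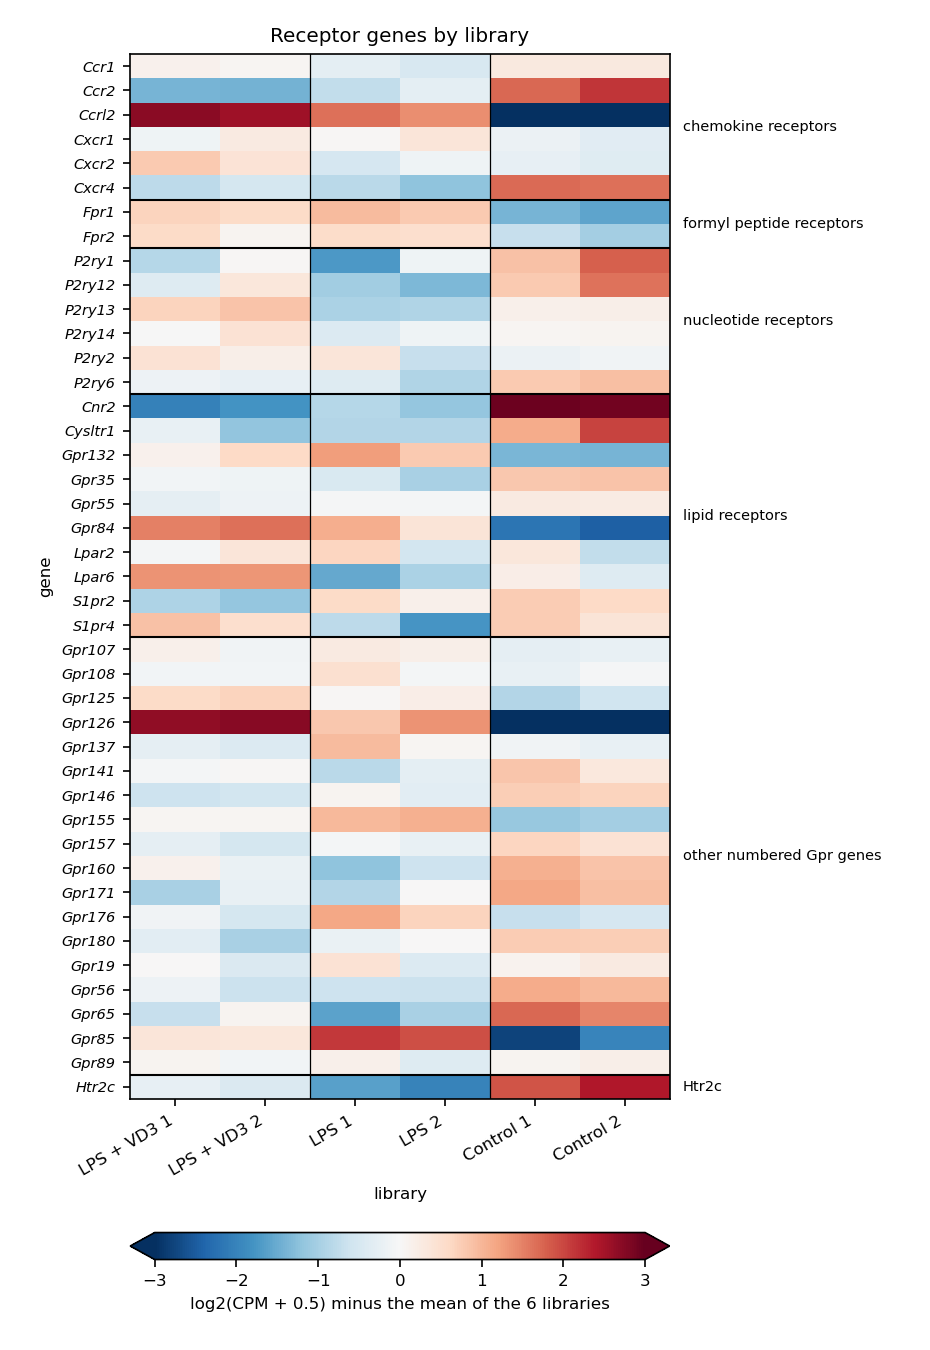
Level of 43 of the 45 receptor genes in each library, as log2(CPM + 0.5) minus the mean of the 6 libraries, with the genes down the page by role and the libraries of LPS + VD3, LPS and control from left to right. Ccrl2 and Gpr126 are blue in both control libraries and darkest red in LPS + VD3, while Cnr2 is red in control only. The colour scale ends at 3 in each direction.

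**Figure D2:**
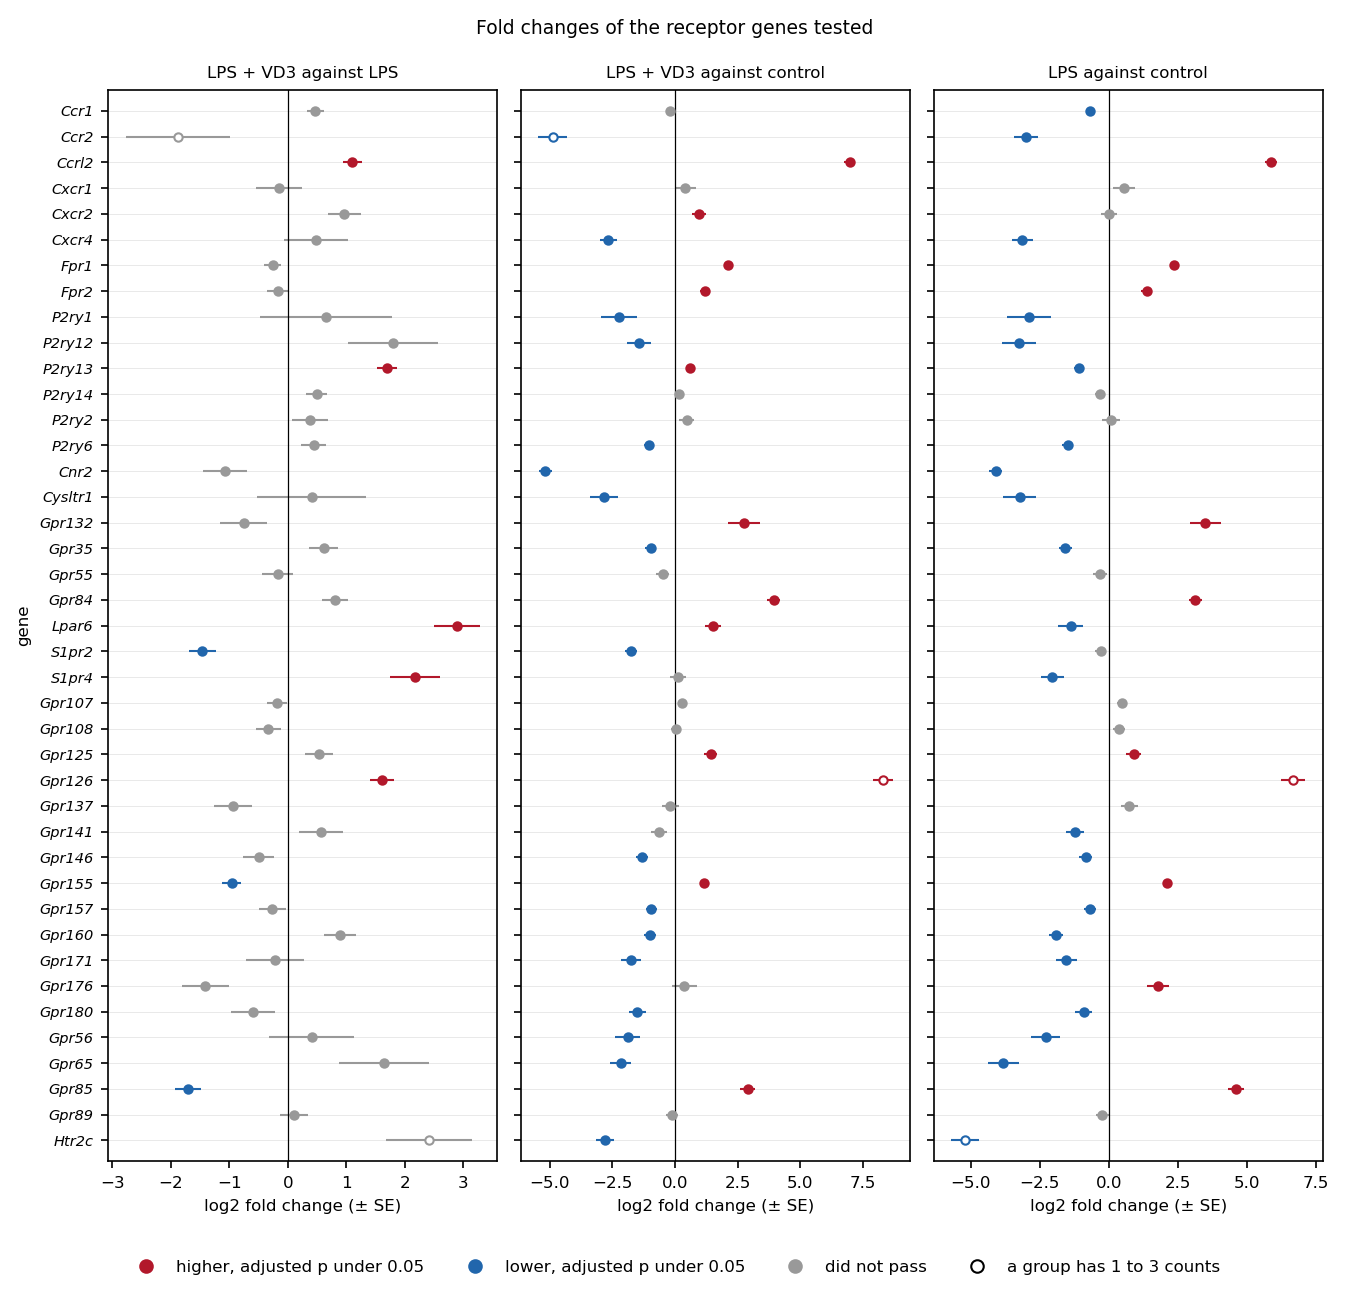
Fold change of 41 of the 43 receptor genes tested in each comparison, on the log2 scale with the SE as bars. Red and blue points passed at an adjusted p under 0.05, grey points did not, and open points mark a comparison in which a group has 1 to 3 counts, so that the plotted value depends on the fit. In LPS + VD3 against LPS the red points are P2ry13, Ccrl2, Gpr126, Lpar6 and S1pr4 and the blue points Gpr85, S1pr2 and Gpr155.

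Promoter sequences of 5 genes are shown because their values carry the results. Ccrl2 and Gpr84 stand for the receptors higher in LPS than in control and Cnr2 for those lower. P2ry13 and S1pr2 stand for those changed by VD3. Each window runs from 250 bases before to 50 bases after an annotated RefSeq start on GRCm38.p6 and is written 5′ to 3′ on the strand of the gene. Capitals mark a motif match. The windows are chr9:111057469-111057768 on the minus strand for Ccrl2, chr15:103310389-103310688 minus for Gpr84, chr4:135894939-135895238 plus for Cnr2, chr3:59210833-59211132 minus for P2ry13 and chr9:20976744-20977043 minus for S1pr2. For Ccrl2, with 3 starts in the table, and Cnr2, with 2, the outermost is shown, and which start these cells use was not measured.
Ccrl2: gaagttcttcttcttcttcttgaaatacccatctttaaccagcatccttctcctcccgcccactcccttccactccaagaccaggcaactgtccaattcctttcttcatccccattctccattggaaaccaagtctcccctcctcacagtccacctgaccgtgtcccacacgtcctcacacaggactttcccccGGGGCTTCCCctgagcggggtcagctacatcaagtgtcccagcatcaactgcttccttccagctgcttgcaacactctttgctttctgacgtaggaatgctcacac
Gpr84: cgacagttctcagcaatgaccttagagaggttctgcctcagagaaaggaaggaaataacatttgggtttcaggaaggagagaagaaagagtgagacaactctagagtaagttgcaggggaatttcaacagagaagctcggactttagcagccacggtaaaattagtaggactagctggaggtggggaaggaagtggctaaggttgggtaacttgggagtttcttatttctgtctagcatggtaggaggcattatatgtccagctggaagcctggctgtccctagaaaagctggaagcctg
Cnr2: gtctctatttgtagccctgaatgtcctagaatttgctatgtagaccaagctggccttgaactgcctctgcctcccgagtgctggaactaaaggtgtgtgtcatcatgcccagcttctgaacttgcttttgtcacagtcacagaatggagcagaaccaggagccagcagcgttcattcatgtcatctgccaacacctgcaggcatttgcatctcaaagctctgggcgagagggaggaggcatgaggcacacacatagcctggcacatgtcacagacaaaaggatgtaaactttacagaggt
P2ry13: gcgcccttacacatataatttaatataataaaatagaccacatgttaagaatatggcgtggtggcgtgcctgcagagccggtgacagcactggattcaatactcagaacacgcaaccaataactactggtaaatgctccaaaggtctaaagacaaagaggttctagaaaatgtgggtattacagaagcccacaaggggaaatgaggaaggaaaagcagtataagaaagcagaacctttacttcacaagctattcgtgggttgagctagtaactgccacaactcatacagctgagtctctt
S1pr2: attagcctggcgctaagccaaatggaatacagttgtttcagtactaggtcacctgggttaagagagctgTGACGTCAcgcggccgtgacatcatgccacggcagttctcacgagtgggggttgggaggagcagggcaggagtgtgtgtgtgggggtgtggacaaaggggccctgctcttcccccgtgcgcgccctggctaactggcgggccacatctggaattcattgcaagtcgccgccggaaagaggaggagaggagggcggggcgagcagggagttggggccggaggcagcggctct

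A promoter window was found for 40 of the 45 genes, 57 windows in all counting several starts of a gene, and 6 motifs were searched on both strands. The NF-kB consensus stood in the windows of Ccrl2 and Lpar2, against 4.51% of 32851 promoter windows of all genes. In Ccrl2 it begins 56 bases before the start. The cyclic AMP response element TGACGTCA stood only in that of S1pr2, 181 bases before the start, against 1.79% of all windows. AP-1 sites, TGACTCA or TGAGTCA, stood in windows of Gpr146, Gpr35, Gpr56, Lpar2 and P2ry14 (5.2% of all windows), the PU.1 site GAGGAAGT in Gpr137 and Gpr55 (3.2%), and the interferon element, GAAA and GAAA with any 2 bases between, in Gpr19 (3.44%). No window of the 57 held a direct repeat of the VDR half-site with a spacer of 3 bases, which 13 of all 32851 windows held. Such matches describe the letters only, and the windows shown for Gpr84, Cnr2 and P2ry13 held none of the motifs.

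Among the chemokine receptors, only Ccrl2 was higher in LPS than in control and 4 were lower, among them Ccr1, Ccr2 and Cxcr4. Cxcr1 and Cxcr2 did not pass. Of all genes tested, 15.7% were higher and 16.2% lower in that comparison. Ccr2 and Cxcr4 entered the test through control only, the group where they are high. Ccrl2, an atypical receptor that holds the chemoattractant chemerin at the cell surface without signalling itself, had 441 and 393 CPM in LPS + VD3, 212 and 176 CPM in LPS and 3.26 and 3.37 CPM in control. No library of one group reached into the next. The log2 fold change was 5.86 ± 0.22 (SE) for LPS against control (edgeR adjusted p = 4.65e-08), 1.10 ± 0.16 for LPS + VD3 against LPS (adjusted p = 0.00399) and 6.97 ± 0.22 for LPS + VD3 against control (adjusted p = 2.05e-08). The VD3 call was lost without LPS + VD3 1 (edgeR adjusted p = 0.0746) or LPS + VD3 2 (0.059), with the fold change between 0.98 and 1.24 over all alternative fits. On the mm10 build Ccrl2 lies on chromosome 9 at 111054486 to 111057519, minus strand.

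Ccr2, the monocyte receptor of Ccl2, had 1 and 1 counts in LPS + VD3, 3 and 5 in LPS and 33 and 48 in control. It fell by 3.002 ± 0.43 on the log2 scale in LPS against control (edgeR adjusted p = 0.00028). For LPS + VD3 against control the ratio was 0.0304 (95% counting interval 0.00362 to 0.114), and against LPS it was 0.25 with an interval of 0.0259 to 1.25. How reads with several matches were counted is not stated, so the small Ccr2 counts are uncertain. Ccr2 lies on chromosome 9 at 124101950 to 124113557, plus strand.

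Cxcr4, the receptor of Cxcl12, had 6 and 8 counts in LPS + VD3, 6 and 4 in LPS and 54 and 56 in control. It was low with and without VD3, at -2.65 ± 0.35 and -3.13 ± 0.38 on the log2 scale against control (edgeR adjusted p = 0.00027 and 0.000143), and the difference between them was 0.48 ± 0.55 (adjusted p = 0.629). Ccr1, a receptor of Ccl3 and Ccl5, changed less. It had 199.9 and 193 CPM in LPS + VD3, 151 and 132 in LPS and 225 and 225 in control. In LPS against control it fell by 0.67 ± 0.15 (edgeR adjusted p = 0.00574), a call lost without control 1 (0.0755) or control 2 (0.0772), and LPS + VD3 against control gave -0.20 ± 0.14 (adjusted p = 0.318). Cxcr2, which binds the neutrophil attractants Cxcl1 and Cxcl2, had 13.8 and 10.5 CPM in LPS + VD3, 5.34 and 7.08 in LPS and 6.51 and 5.93 in control. It passed only for LPS + VD3 against control, at 0.97 ± 0.27 (edgeR adjusted p = 0.0189), and not with library size scaling (0.0819), DESeq2 (0.11), limma on the deposited log2 table (0.0908) or without LPS + VD3 1 (0.127), control 1 (0.101) or control 2 (0.15). Its relative Cxcr1 did not pass in any comparison, with log2 fold changes between -0.15 and 0.56. Cxcr1 and Cxcr2 are known from neutrophils. Of 9 neutrophil markers, S100a9, Mpo, Elane and Retnlg had 0 counts, while S100a8 was higher in LPS + VD3 than in control (edgeR adjusted p = 0.0239) and the list's sum was 19.7 to 23.7 CPM in LPS + VD3, 17.4 to 22.3 in LPS and 12.2 to 13.7 in control. The part of neutrophils in the Cxcr2 values was not tested.

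Both formyl peptide receptors, which detect peptides of bacterial and mitochondrial origin, rose with LPS and were the most abundant members per kilobase of exon in all 3 groups by rank. Fpr1 had 593 and 559.5 CPM in LPS + VD3, 731 and 652 CPM in LPS and 142 and 125 CPM in control, a log2 fold change of 2.37 ± 0.15 for LPS against control (edgeR adjusted p = 2.09e-06). All LPS-treated libraries lay far above control, and the LPS libraries lay above the LPS + VD3 libraries. Fpr2, which also binds annexin A1 and lipoxins, had 319 and 227 CPM in LPS + VD3, 312 and 303 in LPS and 131 and 106 in control (1.37 ± 0.19 for LPS against control, adjusted p = 0.000376). Both were also higher in LPS + VD3 than in control, at 2.11 ± 0.15 and 1.20 ± 0.19 (edgeR adjusted p = 4.01e-06 and 0.000842). VD3 did not change either past the threshold: LPS + VD3 against LPS gave -0.26 ± 0.15 for Fpr1 (edgeR adjusted p = 0.31) and -0.17 ± 0.19 for Fpr2 (0.613). Fpr2 shares exon positions with Fpr3 on the same strand, but Fpr3 had 1 count in all libraries together. Per kilobase of exon, the 3 highest members in control were Fpr1 (100.7 ± 8.9 CPM per kb, SD, n = 2), Fpr2 (91.6 ± 13.9) and Ccr1 (79.5 ± 0.107). Fpr2 did not differ from Fpr1 or from Ccr1 beyond their spread. In LPS the order was Fpr1 (522 ± 42.1), Fpr2 (237 ± 4.72) and Gpr84 (80.6 ± 26.9), with Ccrl2 (74.6 ± 9.96) inside the spread of Gpr84. In LPS + VD3, Ccrl2 had 160.5 ± 13.3, behind Fpr1 (435 ± 18.1) and Fpr2 (210.4 ± 50.4). There Ccrl2 and Fpr2 did not differ beyond their spread.

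Of 6 nucleotide receptors, 4 were lower in LPS than in control: P2ry1, P2ry6, P2ry12 and P2ry13. Of all genes tested, 16.2% were lower in that comparison. P2ry13 was higher in LPS + VD3 than in LPS, where 2.25% of all genes were higher. P2ry1 and P2ry12 entered the test through control only, the group where they are high. P2ry13, a Gi-coupled receptor of ADP, had 83.5 and 95.1 CPM in LPS + VD3, 27.1 and 27.9 CPM in LPS and 57.9 and 59.1 CPM in control. The 3 groups were apart, with LPS lowest and LPS + VD3 highest. Its log2 fold change was 1.70 ± 0.17 for LPS + VD3 against LPS (edgeR adjusted p = 0.000558, at most 0.0255 over 15 alternative fits), a 3.25-fold difference, and -1.09 ± 0.17 for LPS against control (adjusted p = 0.000668). LPS + VD3 stood 0.61 ± 0.16 above control (edgeR adjusted p = 0.0131), a call lost with library size scaling (0.172), with limma on the deposited log2 table (0.183) and without LPS + VD3 2 (0.124), control 1 (0.156) or control 2 (0.131). P2ry13 lies on chromosome 3 at 59207892 to 59210882, minus strand, inside the span of Med12l on the opposite strand, with no exon in common.

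The neighbouring ADP receptor P2ry12, better known from platelets and microglia, was also lowest in LPS, with counts of 6 and 12 in LPS + VD3, 3 and 2 in LPS and 20 and 41 in control, where it was highest. It fell by 3.25 ± 0.62 in LPS against control (edgeR adjusted p = 0.00254), and LPS + VD3 against LPS gave 1.80 ± 0.77 (adjusted p = 0.209), so the VD3 difference did not pass. P2ry12 shares exon positions with Med12l, whose counts were 2 and 3 in LPS + VD3, 2 and 2 in LPS and 8 and 4 in control, so its count is uncertain. P2ry6, a receptor of UDP that is tied to phagocytosis in microglia, had 28.9 and 27.1 CPM in LPS + VD3, 24.2 and 17.0 in LPS and 55.9 and 59.9 in control, with -1.49 ± 0.20 for LPS against control (edgeR adjusted p = 0.000316) and 0.44 ± 0.21 for LPS + VD3 against LPS (0.249). P2ry1, a Gq-coupled ADP receptor, had 2 and 6 counts in LPS + VD3, 0 and 5 in LPS and 15 and 33 in control, and fell by 2.90 ± 0.79 in LPS (edgeR adjusted p = 0.0178, lost at 0.0594 with no filter and 0.131 without control 2). With 0 counts in LPS 1 and 5 in LPS 2 the size of this fold is uncertain: the fit gave -1.97 without LPS 1, -7.42 without LPS 2, where LPS has no count, and -2.28 without control 2. P2ry14, the receptor of UDP-glucose, and P2ry2, a receptor of ATP and UTP, did not pass in any comparison. P2ry14 had 155 and 209 CPM in LPS + VD3, 117 and 141 in LPS and 161 and 163 in control, and no group stood far from the others. P2ry2 had 23.7 and 19.5 CPM in LPS + VD3, 22.6 and 10.5 in LPS and 15.2 and 16 in control, with its widest spread between the LPS libraries.

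**Figure D3:**
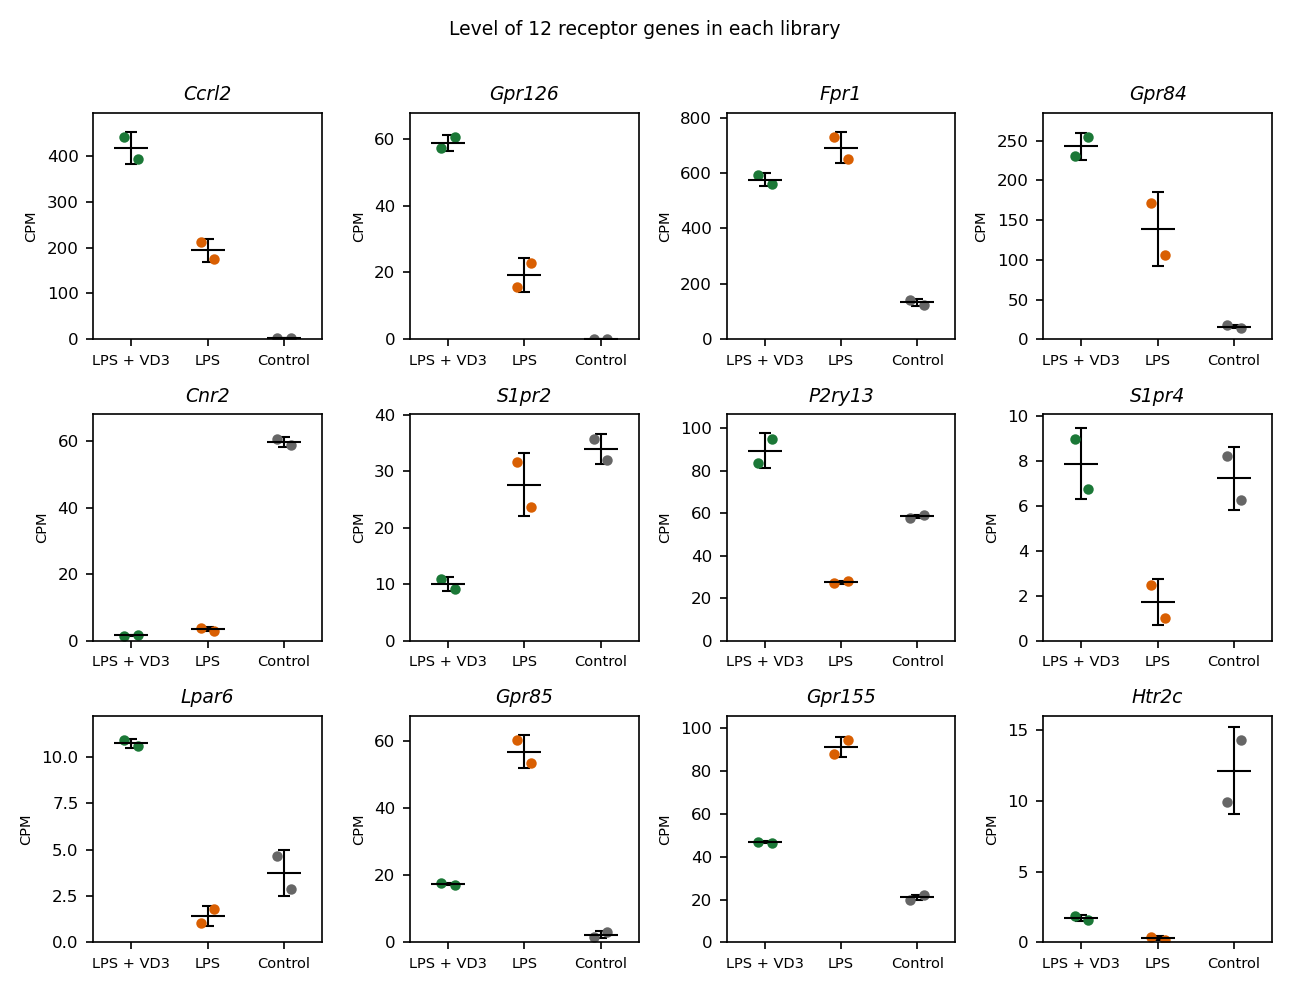
Level of 12 receptor genes in CPM with TMM scaling, from 0, in LPS + VD3, LPS and control from left to right. Points are single libraries, lines are the mean of 2 libraries and bars the SD. P2ry13, S1pr4 and Lpar6 are lowest in LPS, Gpr85 and Gpr155 are highest in LPS, and Ccrl2, Gpr126 and Gpr84 are highest in LPS + VD3, then LPS, then control.

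Of 9 tested receptors of lipids and metabolites, 2 rose and 5 fell in LPS against control, and 2 rose and 1 fell in LPS + VD3 against LPS. The shares of all genes tested were 15.7% higher and 16.2% lower, and 2.25% higher and 1.59% lower. Cnr2, the Gi-coupled cannabinoid receptor of immune cells, had 1.47 and 1.79 CPM in LPS + VD3, 3.90 and 3.03 CPM in LPS and 60.8 and 58.8 CPM in control. Every LPS-treated library lay far under control, and the LPS + VD3 libraries lay under the LPS libraries. LPS against control was -4.10 ± 0.23 (edgeR adjusted p = 9.23e-07), a 17.2-fold loss, and LPS + VD3 against control -5.18 ± 0.26 (3.9e-07). LPS + VD3 against LPS, at -1.07 ± 0.37, did not pass (adjusted p = 0.14, and 0.039 without LPS 2). Cnr2 lies on chromosome 4 at 135895394 to 135920207, plus strand.

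Of the sphingosine 1-phosphate receptors, S1pr2, which couples to G12/13 and restrains migration, and S1pr4, a receptor of blood and immune cells, went in opposite directions with VD3. S1pr2 had 10.9 and 9.16 CPM in LPS + VD3, 31.6 and 23.7 CPM in LPS and 35.8 and 32.1 CPM in control, so LPS + VD3 was low while LPS and control lay next to each other without overlap. LPS + VD3 against LPS was -1.46 ± 0.23 (edgeR adjusted p = 0.00752) and LPS against control -0.30 ± 0.20 (adjusted p = 0.309). S1pr4 had 9 and 6.77 CPM in LPS + VD3, 2.46 and 1.01 in LPS and 8.22 and 6.25 in control, with LPS apart below and the other groups overlapping. It fell by 2.04 ± 0.42 in LPS against control (edgeR adjusted p = 0.0042), rose by 2.17 ± 0.43 in LPS + VD3 against LPS (adjusted p = 0.0216) and was at 0.12 ± 0.32 in LPS + VD3 against control (0.793). Without LPS + VD3 1 or LPS + VD3 2 the VD3 difference of S1pr2 had adjusted p = 0.0865 and 0.158, and that of S1pr4 0.162 and 0.138. S1pr4 also lost its VD3 call with no filter (0.085), and without LPS 1 its log2 fold change was 2.92 in LPS + VD3 against LPS and -2.82 in LPS against control. S1pr2 lies on chromosome 9 at 20962361 to 20976781 and S1pr4 on chromosome 10 at 81497747 to 81500132, both on the minus strand.

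Lpar6, a receptor of lysophosphatidic acid, had the largest rise with VD3 among the receptors that passed. Its counts were 52 and 53 in LPS + VD3, 5 and 9 in LPS and 27 and 18 in control, with all 3 groups apart. LPS + VD3 against LPS was 2.89 ± 0.39 (edgeR adjusted p = 0.0032), with 0.0556 and 0.069 without LPS + VD3 1 or 2, and LPS + VD3 against control was 1.51 ± 0.31 (0.00414), with 0.0691 without control 2. The lower value in LPS than in control, -1.37 ± 0.45 (edgeR adjusted p = 0.0414), was lost in 8 of 15 alternative fits. Lpar6 shares exon positions with Rb1 on the opposite strand, which had 266 and 338 counts in LPS + VD3, 113 and 285 in LPS and 492 and 622 in control, and without a stated strand setting the 2 genes cannot be told apart with certainty. Its relative Lpar2 had 5 and 8 counts in LPS + VD3, 10 and 3 in LPS and 9 and 3 in control and was not tested.

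Gpr84, a receptor of medium-chain fatty acids on myeloid cells, and Gpr132, which responds to oxidized fatty acids and lysolipids, rose with LPS. Gpr84 had 231 and 255 CPM in LPS + VD3, 172 and 106 CPM in LPS and 17.3 and 14.4 CPM in control (3.13 ± 0.25 for LPS against control, edgeR adjusted p = 7.72e-06; 3.94 ± 0.25 for LPS + VD3 against control, 1.79e-06). The groups did not overlap, but LPS + VD3 against LPS, at 0.81 ± 0.22, did not pass (edgeR adjusted p = 0.0755). It passed in 5 of 15 alternative fits, among them DESeq2 (0.0205), GC offsets (0.00109) and the fits without LPS 1 (0.000262) or LPS 2 (0.0163). Gpr132 had 9 and 14 counts in LPS + VD3, 23 and 16 in LPS and 2 and 2 in control, with 3.49 ± 0.57 for LPS against control (edgeR adjusted p = 0.000981). The cysteinyl leukotriene receptor Cysltr1 had 6 and 2 counts in LPS + VD3, 3 and 3 in LPS and 23 and 49 in control (-3.23 ± 0.61 for LPS against control, adjusted p = 0.00238, and -2.64 without control 2). Gpr35, a receptor for which kynurenic acid is a reported ligand, had 13.2 and 12.7 CPM in LPS + VD3, 10.1 and 6.88 in LPS and 24.8 and 25.6 in control (-1.57 ± 0.23 for LPS against control, edgeR adjusted p = 0.000553), and LPS + VD3 against LPS gave 0.61 ± 0.25 (0.193). Gpr55, a receptor of lysophosphatidylinositol, did not pass in any comparison, at 6.07 and 6.57 CPM in LPS + VD3, 7.18 and 7.08 in LPS and 9.08 and 8.82 in control.

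Of the 18 other numbered Gpr genes tested, 5 rose and 8 fell in LPS against control, and 2 rose and 2 fell in LPS + VD3 against LPS. Over all genes tested, 15.7% were higher and 16.2% lower in the first comparison, and 2.25% and 1.59% in the second. Gpr126, the adhesion receptor Adgrg6 known from myelinating Schwann cells, had 273 and 304 counts in LPS + VD3, 76 and 113 in LPS and 1 and 1 in control. The ratio of LPS to control was 116 (95% counting interval 31.7 to 967) and that of LPS + VD3 to control 356 (98 to 2940), with edgeR adjusted p = 1.07e-06 and 8.01e-08. LPS + VD3 against LPS was 1.61 ± 0.20 on the log2 scale (edgeR adjusted p = 0.00161, and 0.0503 without LPS + VD3 2). Gpr85, an orphan receptor conserved among vertebrates and known from brain, had 17.6 and 17.1 CPM in LPS + VD3, 60.1 and 53.2 CPM in LPS and 1.54 and 3.05 CPM in control. It was highest in LPS, with the 3 groups apart: 4.60 ± 0.28 for LPS against control (edgeR adjusted p = 1.31e-06) and -1.71 ± 0.22 for LPS + VD3 against LPS (adjusted p = 0.00242, but 0.0623 and 0.0868 without LPS + VD3 1 or 2). Gpr155, a lysosomal membrane protein reported to sense cholesterol, had the same order of groups, with 47.1 and 46.6 CPM in LPS + VD3, 88 and 94.5 in LPS and 20.0 and 22.0 in control. Its log2 fold change was 2.12 ± 0.17 for LPS against control (edgeR adjusted p = 7.85e-06) and -0.96 ± 0.16 for LPS + VD3 against LPS (0.00936, and 0.109 and 0.156 without LPS + VD3 1 or 2). On mm10, Gpr126 lies on chromosome 10 at 14402583 to 14545659, Gpr85 on chromosome 6 at 13834458 to 13839942 and Gpr155 on chromosome 2 at 73341506 to 73386572, all on the minus strand.

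Gpr65, a proton sensor that couples to Gs and raises cyclic AMP at low pH, had 4 and 9 counts in LPS + VD3, 1 and 3 in LPS and 39 and 34 in control, and fell by 3.82 ± 0.56 in LPS against control (edgeR adjusted p = 0.000461), or -4.73 without LPS 2. LPS + VD3 against LPS was 1.65 ± 0.78 (adjusted p = 0.243).

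The other numbered genes that passed did so against control and not in LPS + VD3 against LPS. Gpr160 had 15.7 and 12.3 CPM in LPS + VD3, 5.95 and 9.10 in LPS and 30.5 and 26.1 in control (-1.91 ± 0.26 for LPS against control, edgeR adjusted p = 0.000296). Gpr171 had 8 and 16 counts in LPS + VD3, 9 and 19 in LPS and 53 and 47 in control. Gpr56 had 5 and 3 counts in LPS + VD3, 3 and 3 in LPS and 19 and 18 in control, so both were high in control alone. Gpr176 had 11 and 8 counts in LPS + VD3, 30 and 21 in LPS and 8 and 10 in control, and was high in LPS alone. Gpr171 fell by 1.53 ± 0.39 and the adhesion receptor Gpr56 fell by 2.28 ± 0.53, and Gpr176, known from the clock of the hypothalamus in mice, rose by 1.79 ± 0.41 (edgeR adjusted p = 0.0125, 0.00791 and 0.00712). Those 3 calls were lost with DESeq2 and without control 1, and Gpr171 was at -2.15 without LPS 2. Gpr125 had 12.6 and 13.3 CPM in LPS + VD3, 8.41 and 9.51 in LPS and 4.28 and 5.29 in control. Smaller changes in LPS against control were those of Gpr125, at 0.90 ± 0.27, and of Gpr141, Gpr146, Gpr157 and Gpr180, between -1.23 and -0.69, with edgeR adjusted p between 0.0181 and 0.0445. Each of these calls was lost without control 1, and with DESeq2, and for Gpr125, Gpr146, Gpr157 and Gpr180 also without control 2. In LPS + VD3 against control, Gpr125 was higher at 1.43 ± 0.26 (edgeR adjusted p = 0.00172) and Gpr146, Gpr157, Gpr160, Gpr171, Gpr180, Gpr56 and Gpr65 were lower, while Gpr141 and Gpr176 did not pass. Gpr107, Gpr108, Gpr137 and Gpr89 passed in no comparison. Gpr107 had 61.8 and 51.4 CPM in LPS + VD3, 66.7 and 62.3 in LPS and 45.7 and 47.4 in control, with narrow differences. Gpr108 had 33.7 and 33.8 CPM in LPS + VD3, 50.7 and 34.4 in LPS and 30.5 and 35.3 in control. Gpr89 had 15.7 and 13.9 CPM in LPS + VD3, 16.4 and 11.1 in LPS and 15.8 and 16.7 in control. Gpr137 shares exon positions with Bad on the opposite strand, and both had their highest count in LPS 1, 88 for Gpr137 and 104 for Bad. Gpr19, not tested, had 6 and 4 counts in LPS + VD3, 9 and 4 in LPS and 8 and 10 in control.

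Htr2c, a Gq-coupled serotonin receptor best known from neurons, had 9 and 8 counts in LPS + VD3, 2 and 1 in LPS and 58 and 89 in control. The 3 groups were apart, with LPS lowest. The ratio of LPS to control was 0.0251 (95% counting interval 0.00512 to 0.0748, edgeR adjusted p = 2.2e-05), and LPS + VD3 against control was -2.79 ± 0.36 on the log2 scale (adjusted p = 0.000163). LPS + VD3 had 5.68 times the level of LPS with a counting interval of 1.64 to 30.2, and this difference did not pass (edgeR adjusted p = 0.106). These intervals cover counting error only. Htr2c lies on chromosome X at 146962513 to 147197277, plus strand, and hosts several small RNAs in its introns.

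Genes that work with these receptors were read from 6 lists. Their counts are descriptions, to be read beside the shares of all genes tested. Those shares were 15.7% higher and 16.2% lower in LPS than in control. In LPS + VD3 against LPS they were 2.25% higher and 1.59% lower. Of 17 tested ligand genes, 14 were higher and 2 lower in LPS than in control, and 3 were higher and 2 lower in LPS + VD3 than in LPS, with a median log2 fold change of 4.25 and -0.34. Cxcl1, Cxcl2 and Cxcl3, ligands of Cxcr2, rose by 10.19 ± 0.26, 9.07 ± 0.22 and 6.64 ± 0.21 in LPS against control (edgeR adjusted p = 4.47e-09, 4.47e-09 and 2.34e-08), and Cxcl10 had 7221 counts in LPS and 2 in control. Ccl3 and Ccl5, ligands of Ccr1 named here after their values were seen, rose by 6.24 ± 0.24 and 9.0 ± 0.39 in LPS against control (edgeR adjusted p = 5.6e-08 and 1.28e-07), and neither passed in LPS + VD3 against LPS. The ligand genes higher in LPS + VD3 than in LPS were Ccl2, Ccl7 and, named after its value was seen, Ccl9, while Cxcl1 (at -1.02 ± 0.14) and Cxcl16, the ligand of Cxcr6 (at -0.93 ± 0.17), were lower, with edgeR adjusted p = 0.00367 and 0.0129. Both of these lower calls were lost without either LPS + VD3 library, and that of Cxcl16 also with no filter. Ccl2 and Ccl7, ligands of Ccr2, rose further with VD3, by 2.08 ± 0.20 and 1.98 ± 0.22 (edgeR adjusted p = 0.00043 and 0.00101). The gene of chemerin, Rarres2, had 0 counts in every library, and its signalling receptor Cmklr1, also named after its value was seen, did not pass (0.47 ± 0.26 for LPS against control, adjusted p = 0.194).

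Of 20 tested enzymes that make or break down lipid and nucleotide ligands, 5 were higher and 8 lower in LPS than in control, and 1 was higher and 1 lower in LPS + VD3 than in LPS. Nt5e, which turns AMP into adenosine, fell by 5.36 ± 0.33 (edgeR adjusted p = 1.52e-06), and Daglb, which makes the endocannabinoid 2-arachidonoylglycerol, fell by 3.51 ± 0.39 (7.5e-05). Without LPS 1 Nt5e was at -5.96, and without LPS 2 Daglb was at -4.19. Ch25h, the first enzyme toward the oxysterol ligand of Gpr183, rose by 2.81 ± 0.21 (5.73e-06). The lipid phosphate phosphatases Ppap2a and Ppap2b, which break down lysophosphatidic acid and sphingosine 1-phosphate outside cells and are now called Plpp1 and Plpp3, rose by 1.59 ± 0.18 and 1.31 ± 0.15 with LPS (edgeR adjusted p = 9.62e-05 and 0.000108). With VD3 they parted, at -0.79 ± 0.18 and 0.76 ± 0.15 in LPS + VD3 against LPS (edgeR adjusted p = 0.0386 and 0.021). Both VD3 calls were lost with no filter, with only the compared libraries fitted, and after leaving out any library of LPS + VD3 or control.

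Of 22 tested receptors outside the symbols used here, 9 were higher and 6 lower in LPS than in control, and none was higher and 2 lower in LPS + VD3 than in LPS. The adenosine receptors Adora2a and Adora2b rose by 6.02 ± 0.33 and 2.98 ± 0.21 with LPS (edgeR adjusted p = 6.38e-07 and 3.09e-06) and were lower with VD3, at -1.21 ± 0.21 and -1.23 ± 0.19 against LPS (adjusted p = 0.0106 and 0.00609), calls lost without LPS + VD3 2 (0.188 and 0.134) and for Adora2a also without LPS + VD3 1 (0.103). The platelet activating factor receptor Ptafr rose by 2.67 ± 0.20 with LPS, and the complement receptor C5ar2 fell by 4.85 ± 0.47 (edgeR adjusted p = 4.59e-06 and 1.75e-05).

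Of 17 tested G protein subunits, 4 were higher and 3 lower in LPS than in control, and 2 were higher and none lower in LPS + VD3 than in LPS. Gna15, a promiscuous Gq family subunit of blood cells, had 102 and 92.4 CPM in LPS + VD3, 50.9 and 32.6 in LPS and 79.7 and 69.6 in control. It fell by 0.84 ± 0.21 in LPS against control (edgeR adjusted p = 0.0131, lost without control 1 at 0.108) and rose by 1.22 ± 0.22 in LPS + VD3 against LPS (0.0122, lost with no filter and without either LPS + VD3 library). Gnb5, a beta subunit that pairs with RGS proteins, had 35 counts in LPS + VD3, 3 in LPS, all in LPS 1, and 39 in control. Its ratio of LPS + VD3 to LPS was 11.7 (95% counting interval 3.68 to 59.4, edgeR adjusted p = 0.0331, lost with no filter and without either LPS + VD3 library).

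Among 15 tested RGS proteins, arrestins and receptor kinases, 3 were higher and 4 lower in LPS than in control, and 1, Grk5, was higher in LPS + VD3 than in LPS. Grk5, a kinase that phosphorylates active receptors, had 88.1 and 87.4 CPM in LPS + VD3, 18.1 and 24.1 CPM in LPS and 50.2 and 50.5 CPM in control. The log2 fold change was -1.26 ± 0.19 for LPS against control (edgeR adjusted p = 0.000562) and 2.06 ± 0.19 for LPS + VD3 against LPS (adjusted p = 0.000337, at most 0.0187 over 15 alternative fits). The arrestin gene Arrb1 fell by 2.51 ± 0.17 and Rgs2, an inhibitor of Gq, fell by 3.70 ± 0.40 in LPS against control (edgeR adjusted p = 2.84e-06 and 6.56e-05). VD3 did not change them past the threshold (-0.04 ± 0.17 and -0.82 ± 0.58 against LPS).

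Of 24 tested second messenger enzymes, 4 were higher and 8 lower in LPS than in control, and 2 were higher and 1 lower in LPS + VD3 than in LPS. Plcb2, a phospholipase C driven by Gq and by beta-gamma subunits in blood cells, had 147 and 162 CPM in LPS + VD3, 50.7 and 44.3 CPM in LPS and 249 and 225 CPM in control. It fell by 2.32 ± 0.16 in LPS against control (edgeR adjusted p = 3.35e-06) and rose by 1.70 ± 0.16 in LPS + VD3 against LPS (adjusted p = 0.000424, at most 0.0224 over 15 alternative fits), with the groups apart. The cyclic AMP phosphodiesterases went in opposite directions with LPS, Pde4b up by 3.32 ± 0.21 and Pde3b down at -2.39 ± 0.20 (edgeR adjusted p = 1.64e-06 and 1.2e-05). Neither passed in LPS + VD3 against LPS. The regulatory subunits Pik3r6, of phosphoinositide 3-kinase gamma, and Prkar2b, of protein kinase A, had 0.80 ± 0.17 and -0.91 ± 0.17 in LPS + VD3 against LPS (edgeR adjusted p = 0.0331 and 0.0177), calls lost with no filter and without either LPS + VD3 library. Over all genes tested the median log2 fold change was 0.01 in LPS against control and 0.00 in LPS + VD3 against LPS.

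**Figure D4:**
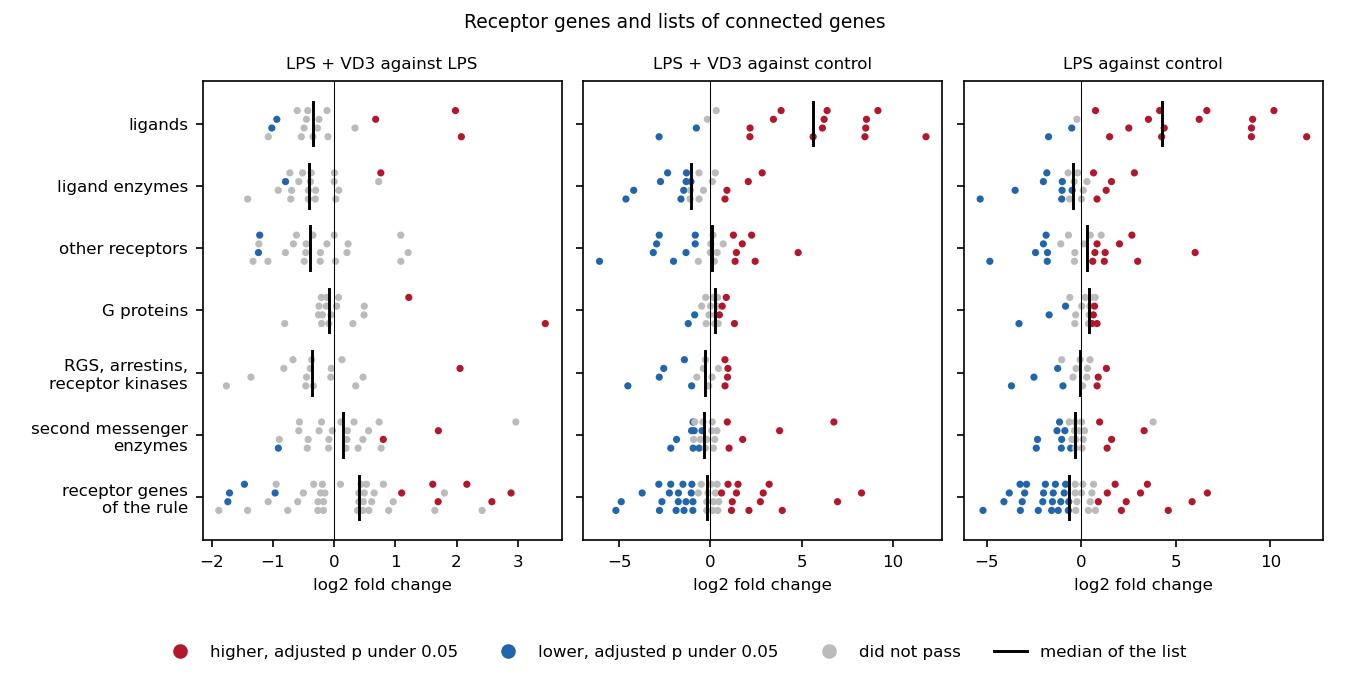
Log2 fold change of the tested genes of 6 lists of connected genes and of the 43 receptor genes, in each comparison. Points are genes, red and blue where the adjusted p was under 0.05, and the black line is the median of the list. The ligand genes lie furthest to the right in LPS against control, at a median of 4.25, while the receptor genes have a median of -0.67.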

How the data were processed

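RNA from 6 libraries of alveolar macrophages was made into libraries with an mRNA kit, per the labels' protocols, and TopHat2, edgeR and the mm10 build are named in the submitters' processing notes, with no versions or roles. The authors deposited raw counts per gene, and the deposited log2 table holds log2(CPM + 1) for 10343 genes, to which recomputed values came within 0.00423. No strand or multi-read setting is given in the sources used here.

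Groups follow the labels, 2 libraries each. The receptor genes, gene lists and tests were chosen with earlier results of these data known. Counts of all 23413 genes were filtered with filterByExpr (minimum count 10, total 15; 10724 genes kept), scaled by TMM and fitted with edgeR 4.0.16's quasi-likelihood test in R 4.3.3 over all 6 libraries, with Benjamini-Hochberg adjustment at 0.05 over all genes tested; the test was tried on simulated data. Totals of 5022314 to 5465223 counts set the precision, and 7903 genes had no count. Ratios with 1 to 3 counts in a group have exact 95% intervals, which cover counting error only. Annotation came from GENCODE M21 and promoter windows from RefSeq on GRCm38.p6. Alternatives were RLE and library size scaling, no filter, DESeq2 1.42.0, the compared libraries only, a replicate block, limma 3.58.1 on the deposited log2 values, GC offsets and leaving out each library. Receptor genes that passed were named, with Cnr2 and Htr2c in every comparison; a few genes are counted in the totals but not reported here by name, and list genes named are among the 4 with the lowest p in a comparison unless stated otherwise.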

Additional observations from a re-analysis of the deposited data

How the results depend on the processing

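Over 15 alternatives no receptor call changed direction. In LPS against control, 21 of 32 calls passed in every alternative that gave the gene a value. So did 1 of 10 calls in LPS + VD3 against LPS and 18 of 31 in LPS + VD3 against control. The deposited log2 table held 35 of the 45 receptor genes, so limma on it gave the others no value. Low-count genes such as Htr2c were thus tried in 13 alternatives in LPS against control. The numbers of receptor genes that passed ranged from 22 to 34 in LPS against control, 1 to 19 in LPS + VD3 against LPS and 21 to 34 in LPS + VD3 against control. For all genes, 411 passed in LPS + VD3 against LPS, against 169 with no filter, 258 with the compared libraries only, 809 with GC offsets and 1152 with the replicate block. Leaving out each library in turn gave 55 to 3670 genes in LPS + VD3 against LPS and 1 to 19 receptor genes, 1940 to 4829 genes in LPS against control and 2126 to 5410 in LPS + VD3 against control; a group left with 1 library is assumed to vary like the others. With library size scaling the median log2 fold change of all genes was -0.29 in LPS against control and -0.32 in LPS + VD3 against control, and 26.2% and 25.9% of the calls were higher, against 49.2% and 50.5% with TMM. With limma on the deposited log2 table these shares were 24.7% and 24.2%. The block called 33, 13 and 31 receptor genes in the 3 comparisons, in the order above, and with it Gpr84 passed in LPS + VD3 against LPS (log2 fold change 0.84, edgeR adjusted p = 0.0119). The labels number the libraries, among them 2 named for LPS 1 and LPS 2 plus VD3, but state no shared mouse, batch or day. The correlation of the replicate differences was 0.196 between LPS + VD3 and LPS, the groups that these names link. It was 0.0894 between LPS + VD3 and control and 0.172 between LPS and control, so not over 0.1 for every pair. The numbers were not taken as pairs in the main fit. These values cannot decide a pairing of LPS + VD3 with LPS, and whether numbered libraries share mice is not known. The causes of these differences were not tested. Genes with under 20 counts in a group, among them Htr2c, Ccr2, P2ry1 and Gpr56, are limited by depth.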
